A study of Homo sapiens with 6 samples.

Results

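ZBTB genes encode transcription factors that join an N-terminal BTB domain to C-terminal C2H2 zinc fingers. The fingers bind DNA, and the BTB domain pairs the proteins with one another and, in many members, recruits histone deacetylase corepressors such as NCOR1 and BCOR. Several members are known from differentiation and cancer: ZBTB16 (PLZF) and ZBTB7A (LRF) from leukaemia, ZBTB18 (RP58) from neuronal differentiation in mouse cortex, and ZBTB17 (MIZ1) as a DNA-binding partner through which MYC and MYCN repress genes. The 41 genes described here are all rows of the deposited count table whose symbol is ZBTB followed by a number and at most 1 letter, out of 19863 rows. Genes of the same structural class that carry other symbols (BCL6, HIC1 and others) are not members and are given separately.

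The cells were NGP, an established MYCN-amplified human neuroblastoma line, grown as 1 line with no genetic change between groups. Cells received OTSSP167, a kinase inhibitor that the series title calls an inhibitor of CAMKV, at 60 nM for 12 h, or DMSO, its solvent, in the same volume. There were 3 libraries per group, with 46230392 to 50810126 counts in DMSO and 36401828 to 57460375 in OTSSP167. Nothing in the labels tells whether replicate libraries were separate cultures, and the p-values therefore speak only of the spread among these samples, which may be technical. Levels are CPM, counts per 1000000 of a library's counted reads after TMM scaling, with mean ± SD over n = 3. A log2 difference is the log2 fold change of OTSSP167 against DMSO, with its standard error (SE), and adjusted p is from edgeR's quasi-likelihood test with Benjamini-Hochberg adjustment over 14402 genes and a threshold of 0.05. Because CPM are relative to the other transcripts and the samples are bulk RNA, fewer cells carrying a transcript and less of it per cell cannot be told apart.

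The label of the cells held for most of its markers. Of 8 sympathetic neuroblastoma markers, MYCN (7544 ± 99.9 CPM in DMSO) and HAND2 (483 ± 104) were abundant, whereas TH, the tyrosine hydroxylase gene, was nearly absent at 0.266 ± 0.130 CPM. Summed markers of leukocytes (4 genes), endothelium (3 genes) and Schwann cells (4 genes) stayed at or under 0.612 CPM in every library. PTPRC was at 0.0423 and 0.120 CPM in DMSO and OTSSP167, PECAM1 at 0.0260 and 0.0175, and SOX10, CD3E and DCN had 0 counts in the 6 libraries. The 4 fibroblast genes summed to 15.7 to 20.2 CPM in DMSO and 6.10 to 10.6 in OTSSP167, almost all of it COL1A1, and the 3 epithelial genes to 1.52 to 2.19 and 3.33 to 4.24 CPM, most of it EPCAM.

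Most ZBTB transcripts were present at low to moderate levels, and those that changed mostly rose. Over the 6 libraries, mean levels ran from 0.233 CPM for ZBTB20 to 213 CPM for ZBTB39, and 30 of the 41 genes had at least 10 CPM. All 41 passed the low-count filter. OTSSP167 raised 12 of them (29.3%; 23.8% of all tested genes) and lowered 3 (7.3%; 22.3% of all tested genes), and 26 did not pass. In either direction 15 of 41 changed, or 36.6%, against 46.1% of all tested genes. The median log2 fold change of the 41 genes was 0.41 and that of all 14402 tested genes 0.01. DESeq2 called 23 of the 41 (17 higher, 6 lower), among them the same 15. The share of all genes that DESeq2 called is not given here, and the edgeR shares above are no measure for this count.

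The whole family summed to 1083, 1050 and 1175 CPM in the 3 DMSO libraries and to 1472, 1531 and 1497 CPM in the 3 OTSSP167 libraries. The sums did not overlap between groups, and ZBTB39 had the largest part in CPM, with means of 136 CPM in DMSO and 289.5 CPM in OTSSP167. In 25 of the 41 genes (61.0%) the 3 libraries of one group lay entirely on one side of the other 3, close to the 60.4% of all tested genes. Tested against a change of 1.5-fold, 3 members were higher (7.3%, against 10.6% of all tested genes) and 1 was lower (2.4%, against 9.03%).

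**Figure D1:**
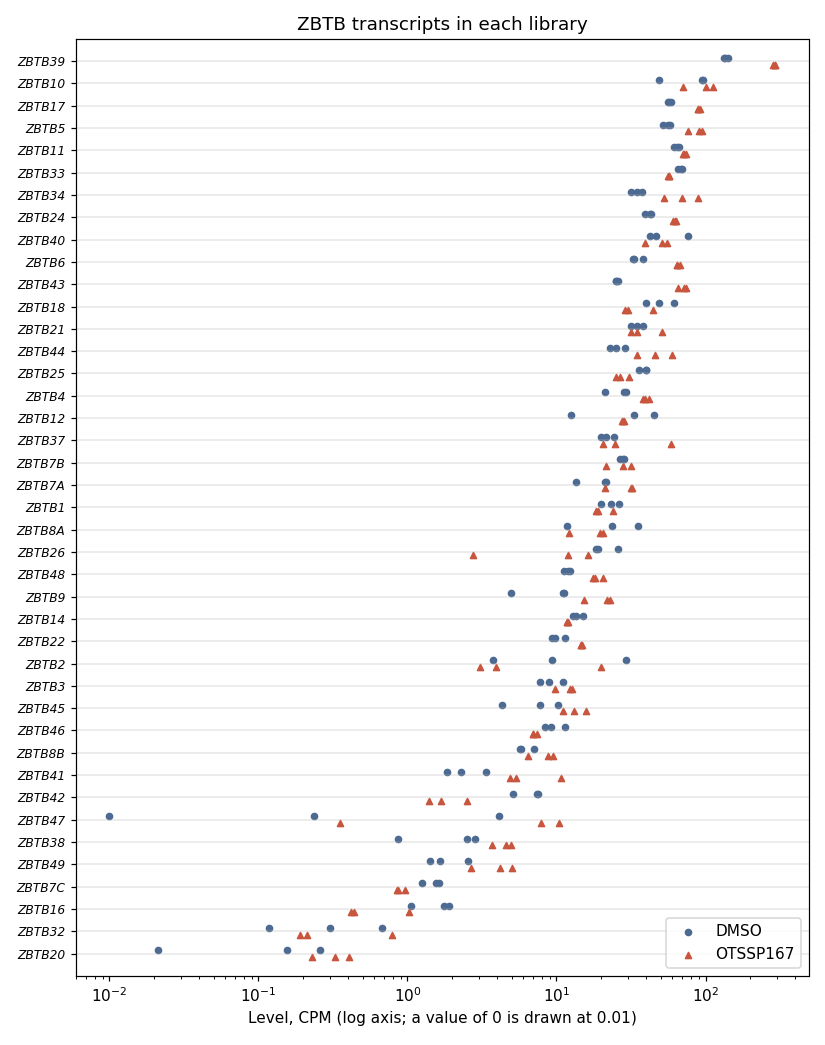
CPM of each of the 41 ZBTB transcripts (rows, ordered by mean level) in each of the 3 DMSO libraries (circles) and 3 OTSSP167 libraries (triangles), on a log axis. ZBTB39 is the most abundant by CPM, and its groups stand apart (132 to 141 against 284 to 294 CPM).

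**Figure D2:**
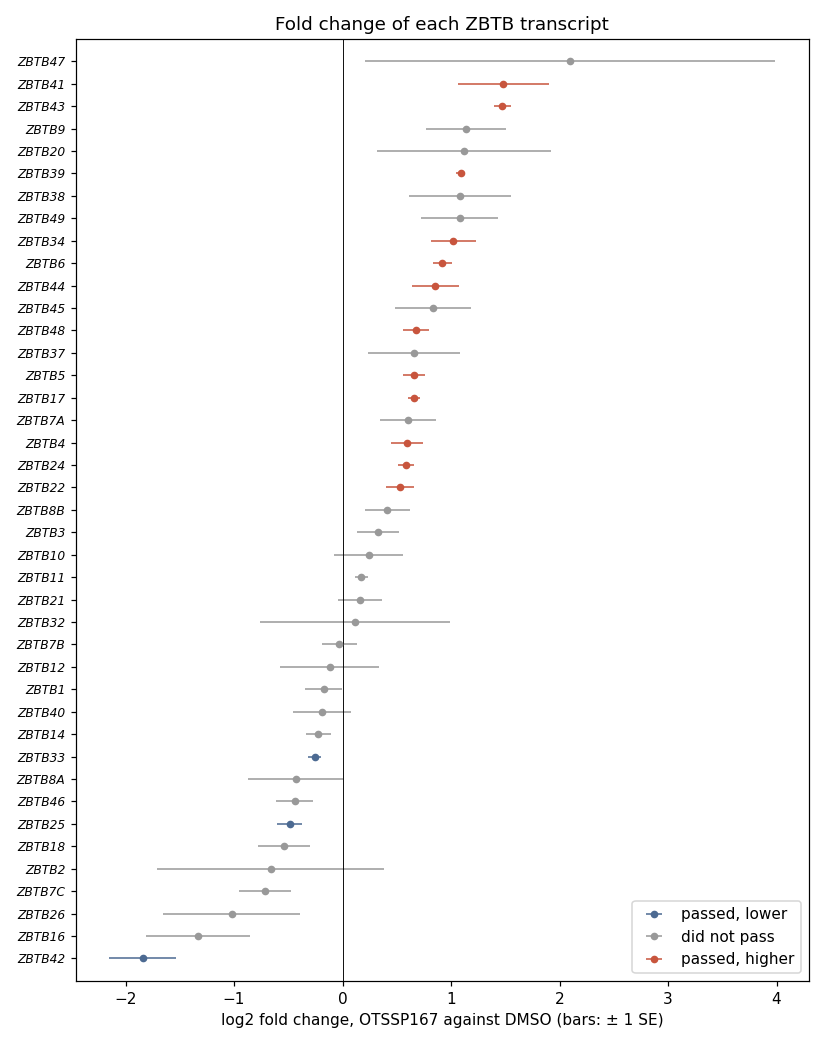
log2 fold change of each ZBTB transcript, OTSSP167 against DMSO, with bars of 1 SE, coloured by the result of edgeR's test. The 12 genes that rose lie between 0.53 and 1.48, the 3 that fell between -1.84 and -0.26, and the widest bar is that of ZBTB47.

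Of the 4 members past the 1.5-fold test, ZBTB39 was the most abundant. ZBTB39, a little-studied member on chromosome 12 (56998834 to 57006446, minus strand, GRCh38), stood at 136, 132 and 141 CPM in DMSO and 284, 294 and 291 CPM in OTSSP167. Its replicates lay close together and its groups far apart (adjusted p = 3.9e-05 by edgeR, log2 difference 1.09, SE 0.04). Per kilobase of merged exons it was also the highest of the family, with 22.1 CPM per kb in DMSO and 46.9 in OTSSP167, followed in DMSO by ZBTB12 (16.2), ZBTB17 (13.5), ZBTB18 (12.8) and ZBTB33 (12.7).

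ZBTB43, for which a role in removing Z-DNA has been described in mouse germ cells, had the largest fold among the abundant members. Its transcript stood at 25.1, 25.0 and 25.9 CPM in DMSO and at 71.3, 73.5 and 65.9 CPM in OTSSP167 (adjusted p = 0.000108 by edgeR, log2 difference 1.47, SE 0.08). The 3 DMSO libraries were nearly identical and each treated library was far above them. ZBTB6, also called ZID, stood at 33.1, 37.8 and 32.4 CPM in DMSO and at 64.4, 67.1 and 64.0 CPM in OTSSP167 (adjusted p = 0.00077 by edgeR, log2 difference 0.92, SE 0.09). ZBTB39, ZBTB43 and ZBTB6 each kept their call in all 13 alternative settings, as did ZBTB17, ZBTB24, ZBTB5, ZBTB48, ZBTB34 and ZBTB42.

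ZBTB42 was the 1 member lowered beyond 1.5-fold. Mutation of this gene is known from a lethal congenital contracture syndrome, and the protein is known from muscle. The transcript stood at 7.46, 7.38 and 5.14 CPM in DMSO and at 1.68, 1.39 and 2.51 CPM in OTSSP167, on 238 to 382 and 66 to 92 counts (adjusted p = 0.00548 by edgeR, log2 difference -1.84, SE 0.31). All treated libraries were below all control libraries. The call beyond 1.5-fold (adjusted p = 0.0175) was lost without DMSO replicate 1 or 2 or without OTSSP167 replicate 1 or 2, where 0 members were lower beyond 1.5-fold. The call against no change held in each of these.

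**Figure D3:**
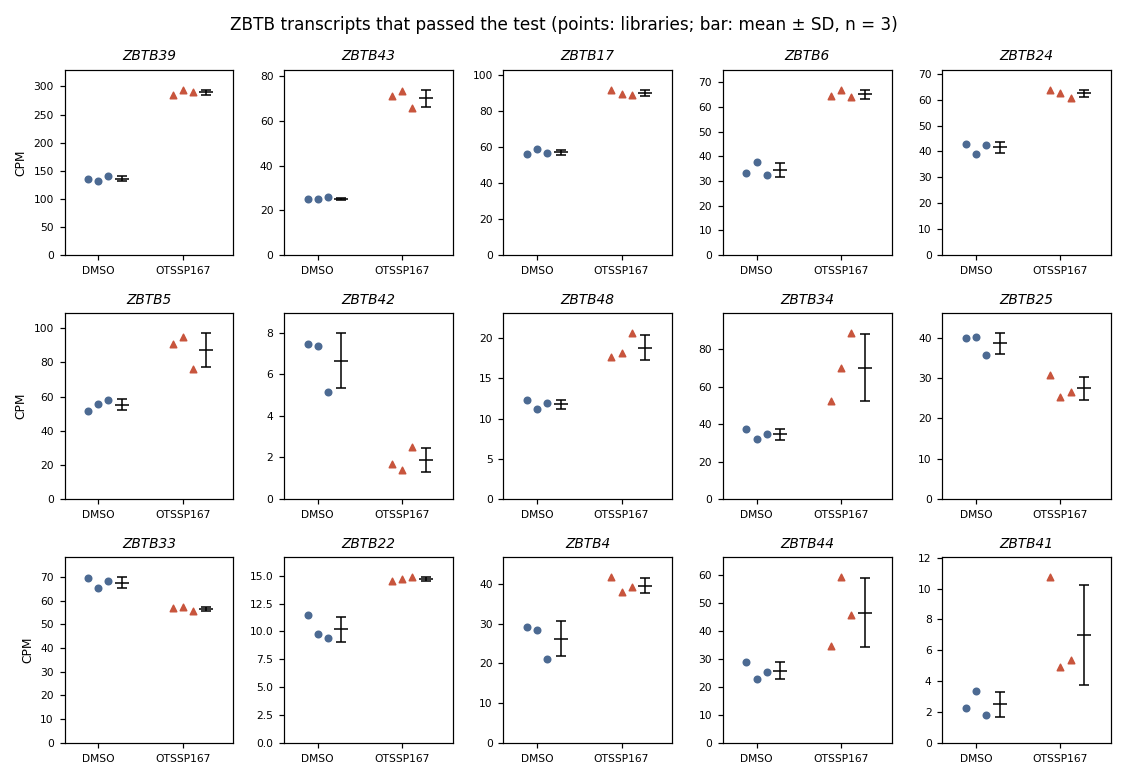
CPM of the 15 ZBTB transcripts that passed edgeR's test, in order of p, in DMSO (circles) and OTSSP167 (triangles), with each axis starting at 0 and bars of mean ± SD (n = 3). In none of the 15 do the groups overlap, as in all but 3 of the 6638 genes that passed in the whole table. ZBTB34, ZBTB44 and ZBTB41 scatter widely within OTSSP167.

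Of 5 members listed for reported action on the cell cycle inhibitor gene CDKN1A (p21) or on the p53 pathway, 3 rose and 0 fell. Of all tested genes, 23.8% rose and 22.3% fell. The 5 were chosen by hand, and the count holds for that list only, not for every member with such a report. With so few genes the count is a description, and 1 of the 3 calls, that of ZBTB4, was lost in 4 alternatives. ZBTB17, the MYC and MYCN partner MIZ1, stood at 56.0, 58.7 and 56.5 CPM in DMSO and at 91.7, 89.1 and 88.7 CPM in OTSSP167 (adjusted p = 0.000482 by edgeR, log2 difference 0.66, SE 0.05). ZBTB5, a reported repressor of CDKN1A, rose from 51.8, 55.9 and 58.0 CPM to 90.5, 94.9 and 76.1 CPM (adjusted p = 0.00469 by edgeR, log2 difference 0.66, SE 0.10). In both genes the treated libraries lay above the controls, with ZBTB17 the tighter.

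ZBTB4, a methyl-CpG-binding member reported to repress CDKN1A together with MIZ1, rose from 29.3, 28.3 and 21.1 CPM to 41.7, 38.0 and 39.1 CPM (adjusted p = 0.0224 by edgeR, log2 difference 0.59, SE 0.15). This call was lost without DMSO replicate 2 (adjusted p = 0.0505) and without OTSSP167 replicate 1 (0.0654), 2 (0.0512) or 3 (0.0558), with 0.000593 to 0.0654 over the alternatives. ZBTB2, another reported repressor of CDKN1A and of the ARF and p53 pathway, did not pass, with 9.34, 3.72 and 29.5 CPM in DMSO and 19.9, 3.94 and 3.06 CPM in OTSSP167. Its groups overlapped, with 1 DMSO library far above the others, and its estimate of -0.66 became 0.44 without DMSO replicate 3. ZBTB49, reported to activate CDKN1A, measured 1.43, 2.56 and 1.66 CPM in DMSO and 5.05, 4.21 and 2.68 CPM in OTSSP167. It did not pass in edgeR (adjusted p = 0.0525 by edgeR, log2 difference 1.08, SE 0.35), but did without DMSO replicate 2 (0.0420), without OTSSP167 replicate 3 (0.0377), with DESeq2 size factors (0.0489), with upper-quartile scaling (0.0391), with at least 1 CPM in the 6 libraries (0.0387) and with DESeq2 (0.0091), with 0.0091 to 0.142 over the alternatives.

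The partners and targets of MIZ1 were read in the same libraries from a list of 8 genes, of which 1 rose, 2 fell and 5 did not pass. The shares over all tested genes were 23.8% risen and 22.3% fallen. MYCN, which forms repressive complexes with MIZ1, stood at 7658, 7472 and 7503 CPM in DMSO and at 4512, 4477 and 4497 CPM in OTSSP167 (adjusted p = 5.74e-06 by edgeR, log2 difference -0.75, SE 0.01). MYC itself was at 0.684 ± 0.200 and 1.00 ± 0.273 CPM. CDKN1A fell from 81.6, 85.1 and 84.2 CPM to 18.3, 16.8 and 16.9 CPM (adjusted p = 3.36e-05 by edgeR, log2 difference -2.27, SE 0.07). CDKN2B, the p15 gene and the other classical MIZ1 target, moved the other way, from 20.8, 20.0 and 24.1 CPM to 39.4, 41.9 and 40.4 CPM (adjusted p = 0.00151 by edgeR, log2 difference 0.90, SE 0.10). Both target genes had separate groups and kept their calls in all alternatives. Whether the levels of the ZBTB members have a part in these changes was not tested.

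**Figure D4:**
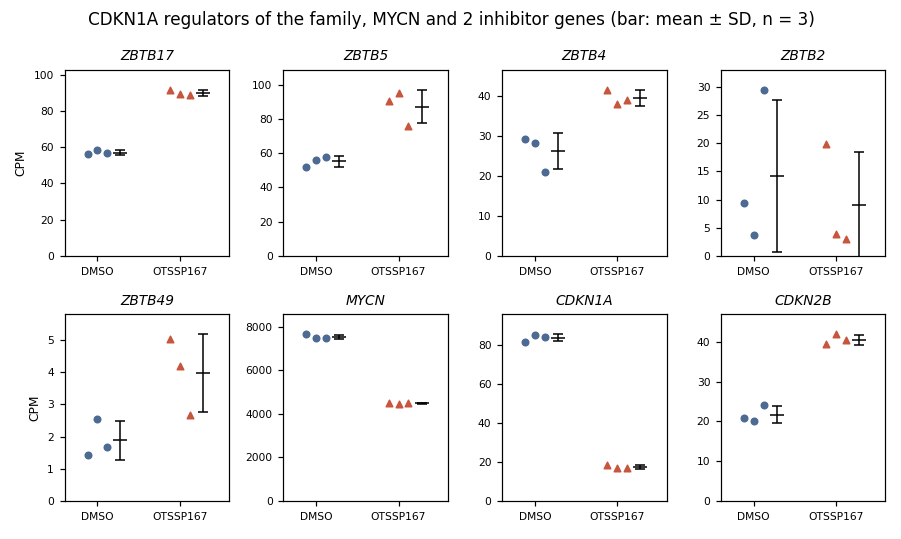
CPM of 5 ZBTB genes with reported action on CDKN1A or p53 and of MYCN, CDKN1A and CDKN2B, in DMSO (circles) and OTSSP167 (triangles), with axes from 0 and bars of mean ± SD (n = 3). ZBTB17 and CDKN2B lie higher and MYCN and CDKN1A lower in all 3 treated libraries, and the libraries of ZBTB2 overlap, where the lower SD bar is cut at 0.

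The 3 members that bind methylated DNA, ZBTB33, ZBTB4 and ZBTB38, did not move together. ZBTB33 (Kaiso), which reads methylated CpG pairs as well as an unmethylated motif, fell slightly, from 69.6, 65.2 and 68.1 CPM to 57.0, 57.1 and 55.6 CPM (adjusted p = 0.0177 by edgeR, log2 difference -0.26, SE 0.06). The groups did not overlap, but the call was lost without DMSO replicate 1 (adjusted p = 0.0527) and with upper-quartile scaling (-0.16, 0.0835), with 1.48e-05 to 0.0835 over the alternatives. ZBTB4 rose, as given above. ZBTB38 was low, with 2.85, 0.867 and 2.53 CPM in DMSO and 4.95, 3.70 and 4.61 CPM in OTSSP167, and did not pass in edgeR (adjusted p = 0.114 by edgeR, log2 difference 1.08, SE 0.47) but did in DESeq2 (0.0489).

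Among 7 methyl-CpG-binding genes outside the family, 4 rose and 0 fell, with a median log2 fold change of 0.56. Of all tested genes, 23.8% rose and 22.3% fell, and with 7 genes the count is a description. MBD1 rose by 1.05 (edgeR adjusted p = 0.0122), MBD2 by 0.62 (0.01002) and MBD3, a subunit of the NuRD corepressor, by 0.27 (0.00272). The calls of MBD1, MBD2 and MBD3 held in every alternative setting. UHRF1, UHRF2 and MBD4 did not pass.

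ZBTB48 (TZAP), which binds telomere repeats and limits telomere length, rose from 12.3, 11.1 and 11.9 CPM to 17.7, 18.2 and 20.6 CPM (adjusted p = 0.00644 by edgeR, log2 difference 0.68, SE 0.12). ZBTB10, also reported at telomere repeats, was among the most abundant members and varied too much to be called, with 96.3, 48.8 and 95.4 CPM in DMSO and 70.9, 112 and 102 CPM in OTSSP167. Its estimate of 0.24 became -0.03 without DMSO replicate 2, the low control library.

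ZBTB24, whose loss causes an immunodeficiency with centromere instability and DNA hypomethylation, rose from 43.0, 39.2 and 42.7 CPM to 63.7, 62.6 and 60.8 CPM (adjusted p = 0.00191 by edgeR, log2 difference 0.58, SE 0.07). It was the 1 of 5 members of the lymphoid group that changed (36.6% of the 41 members and 46.1% of all tested genes changed). The other 4 were ZBTB7B (ThPOK, the CD4 T cell lineage factor), ZBTB32, ZBTB1, needed for lymphocyte development in mice, and ZBTB46, a marker of classical dendritic cells. ZBTB7B stood at 28.4, 27.9 and 26.6 CPM in DMSO and 31.8, 28.03 and 21.5 CPM in OTSSP167, so its estimate was near 0 (-0.03, SE 0.16, edgeR adjusted p = 0.894). ZBTB46 measured 9.65 ± 1.63 and 7.11 ± 0.277 CPM with separate groups (edgeR adjusted p = 0.0803, and 0.0279 in DESeq2). ZBTB32 had only 6 to 32 counts in any library.

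None of the 4 members with known parts in neural development passed, where 36.6% of the 41 members and 46.1% of all tested genes did. ZBTB18 stood at 61.7, 48.7 and 39.6 CPM in DMSO and at 29.98, 28.98 and 44.3 CPM in OTSSP167 (adjusted p = 0.125 by edgeR, log2 difference -0.54, SE 0.24). The groups overlapped through OTSSP167 replicate 3, and without it the gene passed narrowly (-0.76, adjusted p = 0.0496, with 0.0496 to 0.309 over the alternatives). ZBTB45, described in mouse glial differentiation, measured 4.34, 7.81 and 10.3 CPM in DMSO and 11.05, 15.8 and 13.2 CPM in OTSSP167 (adjusted p = 0.104 by edgeR, log2 difference 0.83, and 0.0408 in DESeq2). ZBTB20, a hippocampal patterning factor in mice, was nearly silent, with 1 to 16 counts per library.

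ZBTB16 (PLZF) was also low, with 1.76, 1.06 and 1.90 CPM in DMSO and 1.02, 0.421 and 0.437 CPM in OTSSP167, on 16 to 90 counts. It did not pass (adjusted p = 0.0686 by edgeR, log2 difference -1.33, SE 0.48), but did in DESeq2 (0.0249) and without OTSSP167 replicate 1 (-1.87, 0.0249), with 0.0249 to 0.170 over the alternatives. The 3 ZBTB7 paralogs did not pass in the comparison without a replicate block, and they differed in level. ZBTB7A stood at 21.2, 13.5 and 21.4 CPM in DMSO and 31.6, 21.3 and 32.2 CPM in OTSSP167 (adjusted p = 0.112 by edgeR, log2 difference 0.60, SE 0.26). In each group the library numbered 2 was the low one. ZBTB7C, at 1.25 to 1.62 CPM in DMSO and 0.846 to 0.964 CPM in OTSSP167, had separate groups and adjusted p = 0.0547 in edgeR and 0.0142 in DESeq2.

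There are 4 pairs of ZBTB genes that lie within 100 kb of each other, and in 1 of these pairs both genes changed. As single genes, 36.6% of the 41 members and 46.1% of all tested genes changed. On chromosome 9 (GRCh38), ZBTB43 (126805006 to 126838210) and ZBTB34 (126860665 to 126885878) lie 22454 bp apart on the plus strand, and both rose. ZBTB34, a little-studied member, stood at 37.5, 31.8 and 34.5 CPM in DMSO and at 52.4, 69.8 and 88.6 CPM in OTSSP167 (adjusted p = 0.0111 by edgeR, log2 difference 1.02, SE 0.21). Its treated libraries were all above the controls but spread widely, unlike those of ZBTB43.

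The sequences before the RefSeq starts of these neighbours (GRCh38.p14) are shown because both genes rose and because the windows resemble each other, which was noticed only when the sequences were read. Each runs 5′ to 3′ from 250 bases before the start, with capitals marking the ETS factor motif CCGGAAG on either strand. The last 34 bases before the RefSeq start of ZBTB43 lie inside its GENCODE span and are left off. The bases after the RefSeq start of ZBTB34 were not found in a GENCODE transcript of that gene. The ZBTB43 sequence is chr9:126804790-126805005 and that of ZBTB34 chr9:126860389-126860638, both plus strand.
ZBTB43: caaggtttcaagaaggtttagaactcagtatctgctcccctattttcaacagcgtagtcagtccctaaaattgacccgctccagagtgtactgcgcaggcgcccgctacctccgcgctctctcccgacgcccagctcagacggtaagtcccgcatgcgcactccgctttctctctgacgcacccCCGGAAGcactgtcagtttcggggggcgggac
ZBTB34: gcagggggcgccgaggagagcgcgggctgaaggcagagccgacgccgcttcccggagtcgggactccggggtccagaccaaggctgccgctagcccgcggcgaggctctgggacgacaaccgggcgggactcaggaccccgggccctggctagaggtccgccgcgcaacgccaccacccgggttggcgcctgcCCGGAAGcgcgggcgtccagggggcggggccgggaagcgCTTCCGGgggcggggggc

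The motif occurred once in the ZBTB43 window and 2 times in that of ZBTB34. It was present in 12 of 68 windows of ZBTB genes (17.65%) and in 8.52% of 35116 windows of all genes. The best-matching stretch of 30 bases without gaps had 28 identical bases, where capitals mark the identical bases. It lies 45 to 16 bases before the start of ZBTB43 and 38 to 9 bases before that of ZBTB34, partly inside the GENCODE span of ZBTB43.
ZBTB43: GGGGGCGGGaCCGGGAAGCGtTTCCGGGGG
ZBTB34: GGGGGCGGGgCCGGGAAGCGcTTCCGGGGG
Of 2181 pairs of windows from different ZBTB genes, this was the 1 pair with 28 or more identical bases in such a stretch, and the median pair had 18. The match is a description of the sequences and was not tied to the change in level.

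In each of the other pairs at most 1 gene passed. ZBTB26 and ZBTB6 lie 2235 bp apart on the minus strand of chromosome 9. ZBTB6 rose, as given above, whereas ZBTB26 stood at 18.3, 25.8 and 18.9 CPM in DMSO and at 12.0, 2.77 and 16.4 CPM in OTSSP167. All treated libraries of ZBTB26 were below the controls, but their spread was wide and the gene did not pass (adjusted p = 0.239 by edgeR, log2 difference -1.02, SE 0.63). The difference between the responses of ZBTB6 and ZBTB26 was not tested.

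ZBTB25, a repressor of NFAT target genes, and ZBTB1 overlap by 1502 bp in divergent orientation on chromosome 14 and share 507 bp of exons. ZBTB25 fell from 39.9, 40.2 and 35.7 CPM to 30.7, 25.3 and 26.6 CPM (adjusted p = 0.0169 by edgeR, log2 difference -0.49, SE 0.11). That call was lost without DMSO replicate 1 (0.0573), DMSO replicate 2 (0.0567) or OTSSP167 replicate 3 (0.0504), with 0.000317 to 0.0573 over the alternatives. ZBTB1 stood at 23.1 ± 3.23 and 20.4 ± 3.16 CPM with overlapping groups (edgeR adjusted p = 0.433). Since the strand setting of the counting is not given, reads in the shared exons cannot be told apart. ZBTB8B and ZBTB8A, 42740 bp apart on chromosome 1, did not pass either, and ZBTB8A ranged from 11.7 to 35.1 CPM within DMSO.

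**Figure D5:**
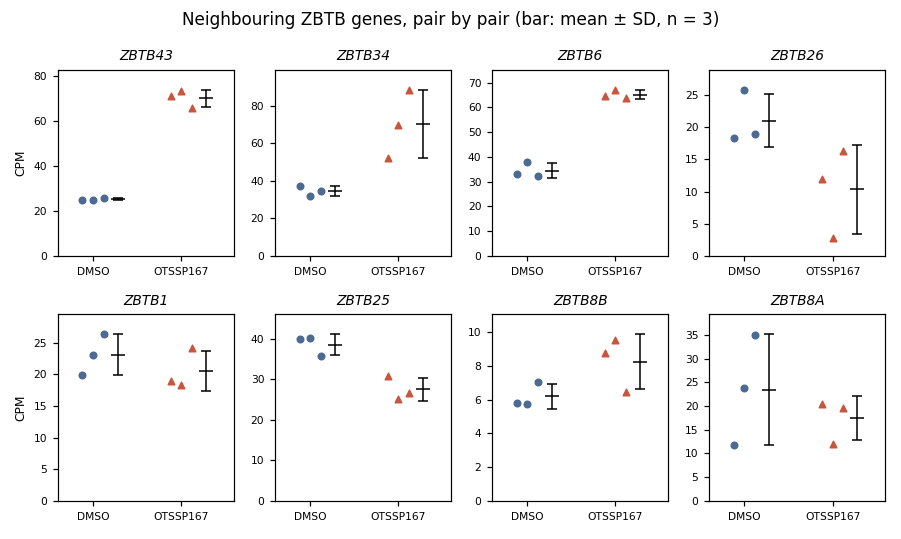
CPM of the 4 pairs of neighbouring ZBTB genes in DMSO (circles) and OTSSP167 (triangles), with axes from 0 and bars of mean ± SD (n = 3). ZBTB43 and ZBTB34 are both higher in the treated libraries, while ZBTB6 is higher and ZBTB26 lower.

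ZBTB39, the member with the smallest adjusted p, has an upstream sequence rich in CpG. Its 250 bases before the RefSeq start (GRCh38.p14, chr12:57006547-57006796, minus strand) hold 27 CpG and 75.6% G and C, where the median window of all genes holds 11 CpG and 58.0%. The bases after this start were not found in a GENCODE transcript of the gene. The window is printed because the gene had the smallest adjusted p of the family, and it holds none of the motifs searched. Its richness in CpG is not particular to ZBTB39. The median window of the members held 16 CpG and 62.8% G and C. Some members that did not rise had richer windows, such as ZBTB42, which fell (41 CpG, 76.0%), and ZBTB46, which did not pass (55, 91.6%).
ZBTB39: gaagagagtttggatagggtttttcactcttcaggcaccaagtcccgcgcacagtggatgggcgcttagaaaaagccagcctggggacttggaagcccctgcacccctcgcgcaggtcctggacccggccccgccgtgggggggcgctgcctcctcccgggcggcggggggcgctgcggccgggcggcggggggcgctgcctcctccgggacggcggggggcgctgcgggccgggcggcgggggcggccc

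Upstream windows were found for 35 of the 41 genes, 68 windows in all, with medians of 16 CpG and 62.8% G and C. For 44 of the 68, the bases after the start were found in a GENCODE transcript of the gene. Besides the ETS motif, the E-box CACGTG bound by MYC and MYCN was in 7 of the 68 windows (10.29%; 6.34% of all windows), on either strand. The cAMP response element TGACGTCA was in 2 (2.94%; 1.65%) and the Kaiso motif TCCTGCNA in 5 (7.35%; 3.74%). Of the 12 genes that rose, 9 had a window. The ETS motif was in 4 of these 9 (ZBTB4, ZBTB24, ZBTB34 and ZBTB43), and the E-box in 1 (ZBTB24). Counted by gene over all 35 members with a window, the ETS motif was in 11 and the E-box in 7. The E-box and the cAMP response element share the letters ACGT, but neither holds the other. No match was read as a binding site.

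The remaining members that changed have no well-known role in these cells. ZBTB22 (BING1, in the MHC region) rose from 11.5, 9.75 and 9.37 CPM to 14.5, 14.7 and 14.9 CPM (adjusted p = 0.0205 by edgeR, log2 difference 0.53, SE 0.13). ZBTB44 rose from 29.03, 22.95 and 25.1 CPM to 34.8, 59.2 and 45.6 CPM (adjusted p = 0.0251 by edgeR, log2 difference 0.86, SE 0.22), with wide scatter under treatment. ZBTB41 rose from 2.29, 3.38 and 1.84 CPM to 10.7, 4.91 and 5.35 CPM (adjusted p = 0.0340 by edgeR, log2 difference 1.48, SE 0.42).

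All treated libraries of these 3 genes were above the controls, but each call was lost when certain single libraries were left out. ZBTB22 was lost without DMSO replicate 2 (0.0733) or 3 (0.0717) and without OTSSP167 replicate 1 (0.0515), 2 (0.0557) or 3 (0.0550), while its log2 difference stayed between 0.45 and 0.63 over all alternatives, with adjusted p 8.99e-06 to 0.0733 over the alternatives. ZBTB44 was lost without DMSO replicate 2 (0.0803) or 3 (0.0763) and without OTSSP167 replicate 3 (0.0602), with 0.000881 to 0.0904 over the alternatives. ZBTB41 was lost without DMSO replicate 1 (0.101) or 3 (0.0992) and without OTSSP167 replicate 1 (0.0635), with 0.00191 to 0.101 over the alternatives.

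ZBTB9 and ZBTB11 lay just outside the threshold. ZBTB9 measured 4.92, 11.04 and 11.3 CPM in DMSO and 22.8, 21.8 and 15.4 CPM in OTSSP167 (adjusted p = 0.0514 by edgeR, log2 difference 1.14, SE 0.37). It passed without DMSO replicate 1 (0.84, 0.0406), with DESeq2 size factors (0.0480), with upper-quartile scaling (0.0384), with at least 1 CPM in the 6 libraries (0.0428) and in DESeq2 (0.00675), with 0.00675 to 0.125 over the alternatives. Its exons are shared with another annotated gene, so its counts are uncertain. ZBTB11, an essential gene of broad expression, was at 64.4, 66.0 and 61.9 CPM in DMSO and 72.0, 74.1 and 70.6 CPM in OTSSP167 (adjusted p = 0.0594 by edgeR, log2 difference 0.17, SE 0.06, and 0.00044 in DESeq2). It passed in edgeR with DESeq2 size factors (0.0390), upper-quartile scaling (0.0133) and at least 1 CPM in the 6 libraries (0.0205).

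The other members did not pass in edgeR or in DESeq2. ZBTB14 had separate groups at 12.9, 14.98 and 13.5 CPM in DMSO and 11.7, 12.0 and 11.7 CPM in OTSSP167. ZBTB3 and ZBTB21 lay within 0.33 of no change on the log2 scale. ZBTB40, ZBTB12 and ZBTB37 were moderately abundant and each scattered through 1 library or more. ZBTB12 ran from 12.4 to 45.4 CPM within DMSO but only from 27.7 to 28.5 CPM within OTSSP167. ZBTB37 had 58.5 CPM in OTSSP167 replicate 2 and 19.9 to 24.8 CPM in the other 5 libraries. ZBTB47 had 209, 0 and 11 counts in DMSO and 408, 20 and 287 in OTSSP167, the widest scatter of the family. In 13 of the 41 genes (31.7%) the libraries of a group differed by more than 2-fold, as they did in 35.3% of all tested genes.

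BTB zinc finger genes under other symbols went in both directions. Of 8 such genes, 3 rose and 1 fell, with a median log2 fold change of -0.04. Over all tested genes 23.8% rose and 22.3% fell. ZNF131 rose from 36.3 ± 2.13 to 62.9 ± 7.01 CPM (adjusted p = 0.00286 by edgeR, log2 difference 0.79, SE 0.11), and this call held in every alternative. HIC2 rose from 64.1 ± 1.79 to 90.7 ± 11.9 CPM (edgeR adjusted p = 0.0135), but not without DMSO replicate 1 (0.0525) or 3 (0.0576). BCL6, the germinal centre repressor, was at 0.774 ± 0.240 and 1.70 ± 0.347 CPM (edgeR adjusted p = 0.0416) and HIC1, a tumour suppressor gene, at 6.50 ± 0.821 and 2.67 ± 1.15 CPM (0.0408). BCL6 did not pass when any 1 of the 6 libraries was left out (0.0537 to 0.121). HIC1 did not pass with upper-quartile scaling (0.0533), and not without DMSO replicate 1 (0.104), 2 (0.0973) or 3 (0.0715) or OTSSP167 replicate 2 (0.0809).

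Among 13 genes of the corepressors that BTB domains recruit, 2 rose and 2 fell, with a median log2 fold change of -0.20. Across all tested genes the shares were 23.8% and 22.3%. HDAC3, the catalytic subunit of the NCOR complex, stood at 64.4, 52.5 and 66.6 CPM in DMSO and at 15.7, 12.7 and 14.1 CPM in OTSSP167 (adjusted p = 0.00023 by edgeR, log2 difference -2.11, SE 0.14). SIN3B, a scaffold of the SIN3 complex, fell from 79.6 ± 7.51 to 32.9 ± 4.12 CPM (adjusted p = 0.000844 by edgeR, log2 difference -1.28). HDAC2 rose by 0.18 (edgeR adjusted p = 0.00201) and TBL1XR1, an NCOR subunit, by 0.67 (0.0251). The TBL1XR1 call was lost without DMSO replicate 3 (0.0782) or OTSSP167 replicate 1 (0.0591), 2 (0.0560) or 3 (0.0720). NCOR1, a scaffold of that complex, did not pass. It stood at 5.18, 17.01 and 9.18 CPM in DMSO and at 35.7, 44.6 and 18.9 CPM in OTSSP167, with separate groups (edgeR adjusted p = 0.0516). It passed without DMSO replicate 2 (0.0297), without OTSSP167 replicate 3 (0.0457), with DESeq2 size factors (0.0493), with upper-quartile scaling (0.0429), with at least 1 CPM in the 6 libraries (0.0465) and in DESeq2 (0.00467).

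Of 11 genes reported elsewhere as targets of ZBTB proteins, 3 rose, 1 fell and 7 did not pass, with a median log2 fold change of 0.16. For comparison, 23.8% of all tested genes rose and 22.3% fell. The ID genes, inhibitors of basic helix-loop-helix factors that ZBTB18 represses in mouse neural cells, made up the rises. ID3 rose from 179, 171 and 169 CPM to 444, 449 and 434 CPM (adjusted p = 1.65e-05 by edgeR, log2 difference 1.35, SE 0.03). ID2 rose by 0.86 (edgeR adjusted p = 8.34e-05) and ID1 by 0.56 (0.000296), while ID4 did not pass (0.42, 0.0769). PKM, the pyruvate kinase gene that ZBTB7A is reported to repress, fell by 0.48 (edgeR adjusted p = 0.0127). The calls of ID1, ID2, ID3 and PKM held in every alternative, and a part of ZBTB18 or ZBTB7A in them was not tested.

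Exon bases are shared by 13 members with another annotated gene, and 7 of them with a gene of the count table. Among members that changed, the shares were small: 5.5% of the exon bases of ZBTB24 lie in MICAL1 on the same strand, and 4.1% and 1.5% of those of ZBTB25 lie in ZBTB1 and MTHFD1 on the other strand. Across the 41 genes, the log2 fold change had a Spearman correlation of 0.09 with merged exon length and 0.06 with mean CPM, given as descriptions over genes that share the same 6 libraries.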

How the data were processed

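The authors deposited 1 table of raw, whole-number counts per gene symbol for 6 libraries. Per the submitters' processing notes, FastQC 0.11.2, HISAT2 2.1.0, StringTie 1.3.5 and GRCh38.p13 were used. The sources used here give no annotation, strand setting or filter, so reads of overlapping genes may be divided in an unknown way. Each column was tied to its sample through its name ("Con" read as the DMSO control), leaving 0 unmatched. Of 19863 rows, 58 symbols occur in more than 1, and the larger row kept the symbol.

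Genes passing edgeR's filterByExpr (14402) were fitted in edgeR 4.0.16 (R 4.3.3) with TMM scaling and a robust quasi-likelihood model of treatment, with Benjamini-Hochberg adjustment over all tested genes and a threshold of 0.05. glmTreat tested a change beyond 1.5-fold. The SE is the size of the log2 fold change divided by the square root of F. Alternatives were DESeq2 1.42.0, 3 other scalings, 2 filters, the replicate number as a block, and leaving out each library. A chi-square per gene between replicates of 82.8 to 98.9, where 1 is sampling noise, showed no copied library. Depth leaves little counting error above 10 CPM. Coordinates and merged exons are from GENCODE release 29 (GRCh38), and upstream sequences from RefSeq.

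Members and lists were chosen with earlier results of these data known. By the rule for names, members beyond 1.5-fold get all values, and others are given by role or count; here all 15 that passed are given in full, which goes past that rule. From each related list, all called genes are named when 6 or fewer. The comparison of the ZBTB43 and ZBTB34 sequences was chosen after they were read. Some genes of the lists and marker sets are counted but not reported here by name.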

Additional observations from a re-analysis of the deposited data

How the results depend on the processing

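The median log2 fold change of the 41 ZBTB genes was above 0 in every setting (0.29 to 0.51). Upper-quartile scaling moved the median of all tested genes from 0.01 to 0.11, so about 0.1 of each estimate in that setting is the scaling. The 15 called members ran from 12 to 13 with single libraries left out (9 to 12 higher, 1 to 4 lower), and members beyond 1.5-fold from 3 to 4 (3 to 4 higher, 0 to 1 lower). DESeq2 called 23 members, 6 of them lower. The shares of all genes called in these settings are not given here, so these counts describe the members only. Upper-quartile scaling put 5 members higher beyond 1.5-fold. For all genes, those higher beyond 1.5-fold were 1526 of 14402 tested in the main setting. They were 946 of 11307 with at least 1 CPM in the 6 libraries, where fewer genes were tested. With single libraries left out they were 980 to 1221, with 14633 to 14770 genes tested. The cause of the lower counts was not tested.

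The replicate numbers were not treated as pairing the libraries, and the labels do not say whether they do. Same-numbered libraries had correlations of 0.01 to 0.04 in their deviations from the group means. Each of the 3 numbers correlated best with itself, so these small values cannot exclude pairing. With the replicate block, 12 members were called, 11 of the main 15 among them. The share of all genes called with the block is not given here. ZBTB22 (adjusted p = 0.0694), ZBTB33 (0.0717), ZBTB41 (0.0809) and ZBTB44 (0.0904) no longer passed, nor did HIC2 (0.0540), BCL6 (0.0601) and HIC1 (0.0942), and ZBTB7A passed (0.0267). With the block, 3 members were higher and 0 lower beyond 1.5-fold, and 1496 of all genes passed that test (737 higher, 759 lower). The block leaves 2 residual degrees of freedom in place of 4.

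The sign turned under some setting for 7 members, none of which passed. With single libraries left out, the log2 difference of ZBTB10 ran from -0.026 (without DMSO replicate 2) to 0.41, that of ZBTB12 from -0.498 to 0.276 (without DMSO replicate 3), and that of ZBTB2 from -2.017 to 0.441 (without DMSO replicate 3). That of ZBTB21 ran from -0.078 (without OTSSP167 replicate 3) to 0.289, and that of ZBTB40 from -0.347 to 0.106 (without DMSO replicate 3). ZBTB32 ran from -0.851 (without OTSSP167 replicate 1) to 0.906 and was also below 0 without DMSO replicates 1 (-0.316) and 3 (-0.016). ZBTB7B ran from -0.161 to 0.111 (without OTSSP167 replicate 3). ZBTB12 was 0.059 with the replicate block, and ZBTB7B 0.071 with upper-quartile scaling and 0.031 with at least 1 CPM in the 6 libraries. The cause was not tested.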
